A study of Mus musculus with 24 samples.

Results

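The genes described are 9 genes of B lymphocyte development, Rag1, Rag2, Dntt, Vpreb1, Igll1, Cd79a, Cd79b, Pax5 and Ebf1, taken by their symbols from a count table of 48709 genes. They were measured by ribosome-depleted RNA sequencing in whole blood and dissected cerebral cortex of C57BL/6 mouse neonates aged 3 to 5 days by their labels. The dams breathed either nPM, nano-sized particles collected from traffic air, or filtered air (controls), on 3 days a week and 5 h a day, from gestational day 2 until birth. The labels give the substrain as C57BL/6J and the dose as 300 mg per cubic metre, and the study's methods name C57BL/6NJ and state the same number in µg. No gene was altered and no agent other than nPM was given, and each tissue has 12 libraries, 3 for each sex and exposure. Pups were drawn from different litters, and no label ties a library to its litter, so the p-values measure the spread between these libraries only.

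B lymphocytes are built from common lymphoid precursors, in the liver before birth and in the bone marrow afterwards. Ebf1 and Pax5 are the transcription factors that specify and then fix the lineage. Rag1 and Rag2 form the recombinase that cuts the antigen receptor genes, and Dntt (terminal deoxynucleotidyl transferase) adds untemplated bases at the joins. Vpreb1 and Igll1 (lambda 5) make the surrogate light chain of the pre-B cell receptor, and Cd79a and Cd79b are the signalling chains of the receptor from the pro-B stage to the mature B cell. Rag1, Rag2 and Dntt are used as well by developing T cells in the thymus.

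In the authors' gene map (mm10) all of the members are protein-coding. Rag1 (ENSMUSG00000061311, chr2:101638282-101649501) and Rag2 (ENSMUSG00000032864, chr2:101624718-101632529) are neighbours on opposite strands, and both overlap the span of B230118H07Rik. That gene is protein-coding and on the strand of Rag1, and how far the overlap bears on the counts was not tested. Igll1 (ENSMUSG00000075370, chr16:16860671-16863985) and Vpreb1 (ENSMUSG00000059305, chr16:16868402-16870843) are neighbours too. Vpreb1 overlaps Top3b on the other strand, and its counts cannot be told apart from antisense reads, since no source used here states whether the counting used strand. Cd79a (ENSMUSG00000003379, chr7:24897381-24902197), Cd79b (ENSMUSG00000040592, chr11:106311341-106314762) and Dntt (ENSMUSG00000025014, chr19:41029275-41059523) overlap no other gene. Pax5 (ENSMUSG00000014030, chr4:44524757-44710487) overlaps 4 genes and Ebf1 (ENSMUSG00000057098, chr11:44617317-45008091) overlaps 1, antisense or small ones.

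Promoters are shown for the members in which a form of the Ebf1 recognition sequence was found, because Ebf1 is itself a member and is known to bind the promoters of the Cd79a, Vpreb1 and Igll1 genes. RefSeq windows on GRCm38.p6, of 250 bases before to 50 bases after the start, were found for 8 of the 9 members, with 2 windows for Ebf1. The letters CTCAAGGG, chosen after the Cd79a promoter was read, were searched on both strands along with CCCNNGGG. They were present in the windows of Cd79a (plus strand, excerpt chr7:24897291-24897358, match 176 bases before the start) and Vpreb1 (minus strand, excerpt chr16:16869381-16869448, match 163 bases before the start). Of all 32851 promoter windows, 1.18% held CTCAAGGG. CCCNNGGG was present in the Igll1 window (minus strand, excerpt chr16:16864179-16864235, match 231 bases before the start), and in 13.7% of all windows. The windows of Rag1, Rag2, Dntt, Pax5 and Ebf1 held neither string. The excerpts read 5′ to 3′ on the gene's strand, with the match in capitals:
Cd79a: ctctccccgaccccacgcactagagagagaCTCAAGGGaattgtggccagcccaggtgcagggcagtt
Vpreb1: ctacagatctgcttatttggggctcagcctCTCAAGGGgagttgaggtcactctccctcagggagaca
Igll1: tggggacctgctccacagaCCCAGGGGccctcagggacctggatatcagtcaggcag
A match describes the letters only and is not evidence of binding in these samples.

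The blood libraries carried the marks of blood. Globin genes took 66.2 to 76.8% of the counts in 11 of them and 0.0246 to 0.0680% in cortex, where Snap25 and Neurod6 (neurons) were present at 11854 to 25338 and 3439 to 6191 counts. Library totals were 13595647 to 21895536 counts in those 11 blood libraries and 22301409 to 33804371 in cortex, so that 3 counts, the limit set by a count of 0, stood for 0.137 to 0.221 and 0.0887 to 0.135 CPM, the count relative to the library total. Intervals and limits from counts cover counting error only. The control female library V2 stood apart. It had 22461 genes with a count against 13254 to 17273, globin at 50.1%, and 8327 CPM over 9 genes of connective tissue, muscle and skin against 11.9 to 44.1 CPM. The study left out 1 blood sample with a distinct count distribution without naming it. V2 is therefore not among the 6 nPM and 5 control libraries of the blood comparisons. It held 6 counts of Rag1, 0 of Rag2, 0 of Dntt, 3 of Vpreb1 and 2 of Igll1. It held 43 of Cd79a, 102 of Cd79b, 23 of Pax5 and 332 of Ebf1. Its unscaled Rag1 level, 0.283 CPM, was below the 0.488 to 15.1 CPM of the other 11 blood libraries. V4, a control female, and V5, an nPM male, stood apart in ways that touch single members and are described with those.

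All 9 members were detected in blood, at low counts. Levels below are CPM scaled by TMM, a factor that sets the bulk of genes level between libraries, and per kilobase of exon where genes are compared with each other. The receptor chains were the most abundant, with Cd79b at 5.11 ± 1.64 CPM per kb (SD, n = 11) and Cd79a at 2.71 ± 0.924. Cd79b was above Cd79a in 11 of 11 libraries and Cd79a above Rag1, the next in order, in 11 of 11. Rag1 (0.366 ± 0.50 CPM per kb), Pax5 (0.309 ± 0.103), Dntt (0.202 ± 0.242), Ebf1 (0.200 ± 0.109), Vpreb1 (0.189 ± 0.132) and Igll1 (0.149 ± 0.0775) followed, and neighbours in this order did not differ beyond their spread. Rag1 had the higher mean but was above Pax5 in 3 of 11 libraries, and Dntt was above Ebf1 in 3 of 11. Rag2 had the lowest level (0.0581 ± 0.0611), below Igll1 in 11 of 11 libraries. In bulk blood, fewer cells of a type and less RNA per cell cannot be told apart.

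**Figure D1:**
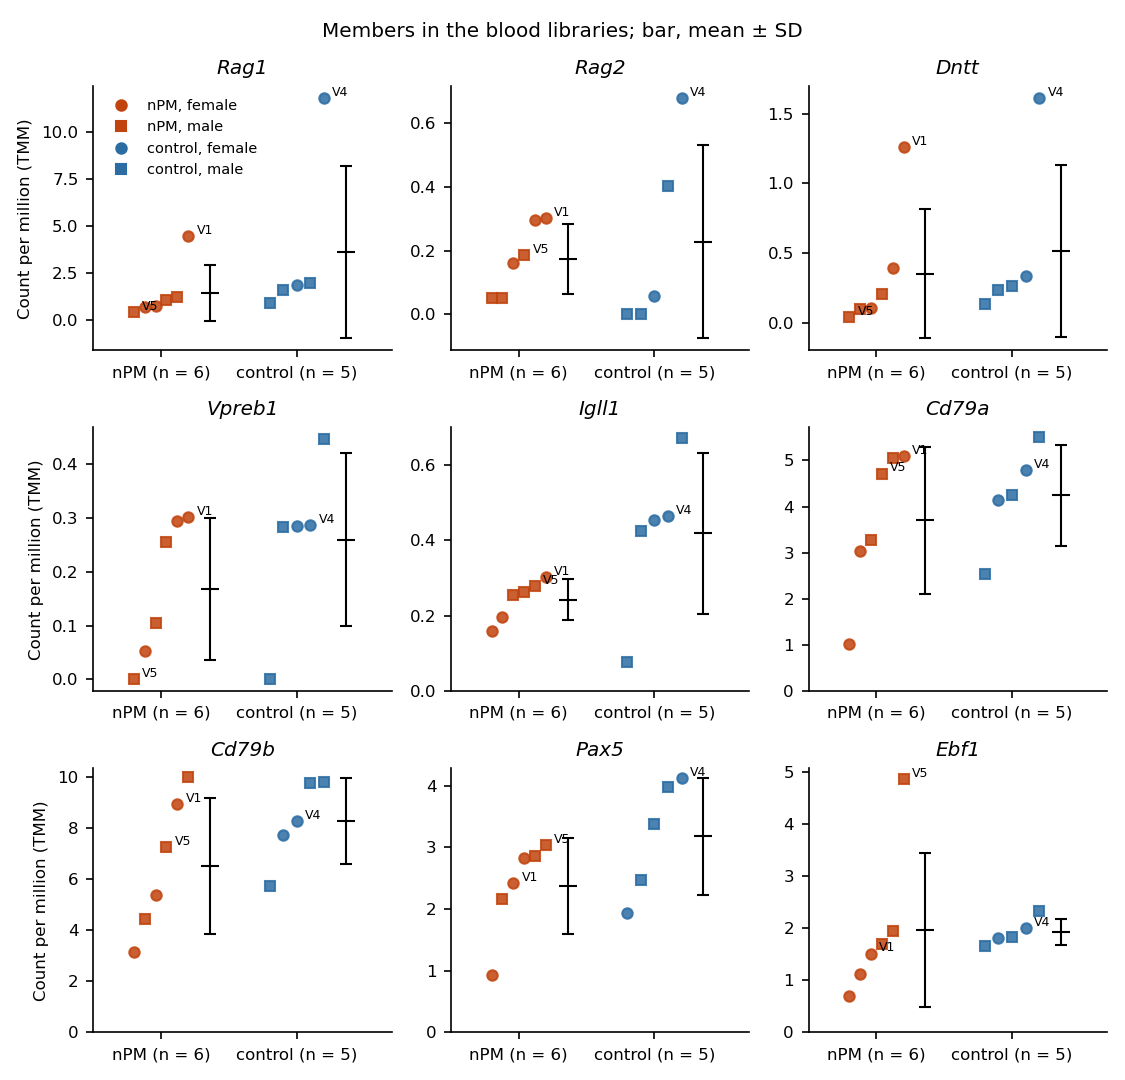
TMM-scaled CPM of each member in the blood libraries, with nPM (n = 6, orange) and control (n = 5, blue), circles for females and squares for males, and the mean ± SD beside each group; V2 is not shown. Each panel has its own linear axis. Rag1 and Dntt are highest in control library V4 and next highest in nPM library V1, Ebf1 is highest in nPM library V5, and the groups overlap in all panels.

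Rag1 had the highest counts of the recombination genes. The nPM libraries held 88, 14 and 14 counts in females (V1, V3, V18) and 9, 20 and 24 in males (V5, V7, V21). The control libraries held 330 and 32 counts in females (V4, V17) and 22, 11 and 44 in males (V6, V8, V22). V4 was far above every other library, V1 was second, and the remaining 9 lay between 9 and 44 counts. On the scaled level, controls V6, V17 and V22 (1.56, 1.82 and 1.97 CPM) were above every nPM library but V1. Control V8 (0.864 CPM) lay within the range of the other nPM libraries (0.420 to 1.22 CPM). V4 alone gave 54.3% of the Rag1 counts of the 11 libraries (exact binomial 95% interval 50.2 to 58.3%), against 10.4% of all their counts. The means were 1.43 ± 1.5 CPM with nPM (SD, n = 6) and 3.60 ± 4.61 in controls (n = 5), with control medians of 1.82 CPM and nPM medians of 0.901 CPM. Without V4 the control mean was 1.55 CPM and the control median 1.69 CPM (n = 4). The nPM mean of 1.43 CPM beside them still includes V1 (4.44 CPM), and no mean was computed without both V4 and V1.

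Rag2, the partner of Rag1 in the recombinase, was at 1 to 6 counts with nPM and 0 to 19 in controls. V4 (19 counts) and V22 (9) were the highest, and 0 counts were found in the control males V6 and V8, which allows up to 0.162 and 0.221 CPM. Dntt was at 45 counts in V4 and 25 in V1, and at 1 to 8 in the other 9 libraries. The ranking by Rag1 and by Dntt thus shared its top 2 libraries, one of each exposure. Over the 11 libraries the log2 levels of Rag1 and Dntt had a Pearson r of 0.90, or 0.79 without V4, given as a description since the libraries also share depth and cell makeup.

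The surrogate light chain genes were near the limit of detection. Igll1 was at 3 to 6 counts in all 6 nPM libraries and at 13, 8, 6, 1 and 15 counts in controls V4, V17, V6, V8 and V22. On the scaled level 4 of the 5 controls were above the highest nPM library, and V8, the shallowest library, was below the lowest. Group means were 0.243 ± 0.0539 CPM with nPM and 0.419 ± 0.214 in controls. Vpreb1 was at 0 to 6 counts with nPM and 0 to 10 in controls, with 0 counts in V5 and V8. Its paralog Vpreb2, which shares much of its sequence so that reads may be split between them, had 6 counts in all over the 11 libraries.

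The receptor chains and the transcription factors had counts in every blood library and overlapped widely between the groups. Cd79a was at 21 to 101 counts with nPM (median 80.5) and 36 to 134 in controls (median 73). Cd79b was at 64 to 196 with nPM (median 128) and 73 to 231 in controls (median 138). Pax5 was at 19 to 65 with nPM (median 50.5) and 34 to 115 in controls (median 43). The 2 receptor chains and Pax5 were each lowest in the nPM female V3 on the scaled level. Cd79a and Pax5 had an r of 0.82 over the 11 libraries and Cd79a and Cd79b one of 0.74, while Rag1 and Ebf1 had one of -0.01.

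Ebf1 was at 14 to 38 counts in 5 nPM libraries and at 104 in the sixth, V5, with 21 to 56 counts in controls. V5 also held the most neuronal RNA of the 11, with 36.2 CPM summed over 6 neuronal genes (6 of 6 detected, Snap25 at 81 counts) against 0.206 to 9.49 CPM in the others. In cortex that sum was 6560 to 7468 CPM and the Ebf1 level 1.7 to 8.13 CPM, while V5 had 5.64 CPM of Ebf1. V2, with its skin and connective tissue transcripts, held 332 Ebf1 counts (15.7 CPM). The part of other tissue in the Ebf1 counts was not tested.

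The question of the main comparison was whether prenatal nPM shifted these genes in neonatal blood. None of the 7 members that had at least 1 count in every library, the study's filter, passed an adjusted p of 0.05 by edgeR's quasi-likelihood test with sex and RNA integrity (RIN) as covariates. Rag2 and Vpreb1 had libraries at 0 and were not tested. At this cutoff 0% of the 9977 genes tested were called, and limma voom and DESeq2 called 0 members as well. At an unadjusted p under 0.05, 1 member passed (Rag1), against 3.11% of all genes, and at the study's unadjusted cutoff of 0.005 none did by edgeR, against 0.17%. By limma voom, the study's test, Rag1 was under that cutoff (log2 fold change -1.46, unadjusted p = 0.00256). All 7 estimates were below 0, with a median log2 fold change of -0.40, where 49.6% of all genes were below 0 and their median was 0.00. The members share the same libraries and some are correlated, so these signs are not independent. Without the control V4, the estimate was 0.13 for Ebf1 and -0.18 for Pax5.

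Rag1 was estimated lower with nPM, with a log2 fold change of -1.32 (SE 0.42, unadjusted p = 0.00565, adjusted p = 1.00 by edgeR). The estimate rested on V4, and without it was -0.57 (unadjusted p = 0.145). Without V1, the high nPM library, it was -1.02 (unadjusted p = 0.10). With any 1 of V6, V8, V17 or V21 left out, it was -1.46 to -1.68 (unadjusted p from 0.000362 to 0.00363, under the study's cutoff), with adjusted p of at least 0.906 by edgeR. Within the sequencing lanes that hold both exposures, the difference of mean log2 levels was -0.94 in lane 1 (4 nPM and 3 control libraries) and -0.71 in lane 3 (2 and 2). Lane 1 holds V4, and its difference was not computed without V4. The other lane 1 controls, V6 and V8, were at 1.56 and 0.864 CPM, within the range of the lane 1 nPM libraries (0.420 to 4.44 CPM). The highest of these nPM libraries was V1, and the next was V7 at 1.06 CPM. Dntt had -0.94 (SE 0.49, unadjusted p = 0.0712) and, without V4, -0.42. Igll1 had -0.79 (SE 0.45, unadjusted p = 0.0959) and -0.76 without V4. The other estimates were -0.40 for Pax5 (SE 0.27), -0.30 for Cd79b (SE 0.24), -0.21 for Cd79a (SE 0.30) and -0.03 for Ebf1 (SE 0.33), all with adjusted p = 1.00.

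**Figure D2:**
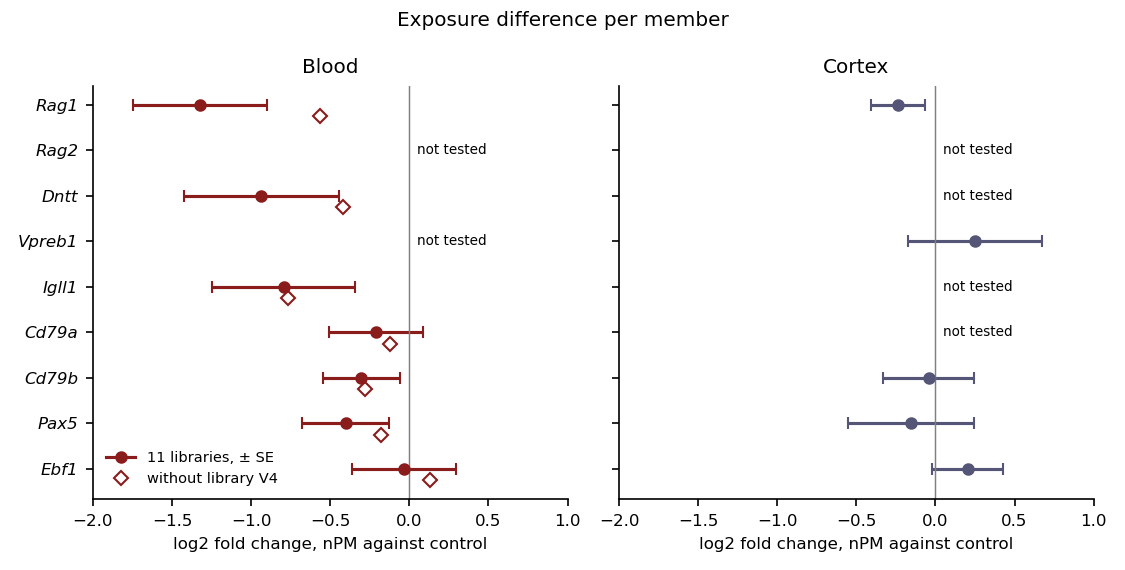
Log2 fold change of nPM against control for each tested member in blood (left) and cortex (right), with the edgeR estimate ± SE as filled circles and, for blood, the estimate without control library V4 as open diamonds. Without V4 the Rag1 estimate moves from -1.32 to -0.57 and Dntt from -0.94 to -0.42, while Igll1 stays near -0.8.

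The call on Rag1 depended on the filter. When genes with a count in any of the 11 libraries were kept (22409 genes, of which 0.125% were called), Rag1 passed with -1.31 (SE 0.27, adjusted p = 0.00280 by edgeR) and was the only one of 9 members to do so. Rag2 then had -0.54 (SE 0.76) and Vpreb1 -0.69 (SE 0.75). With the same filter and without V4, Rag1 had -0.55 (adjusted p = 1.00) and no member passed. With V2 put back (all 12 blood libraries), Rag1 had -0.99 (unadjusted p = 0.249).

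The scaled levels of the groups overlapped for 9 of 9 members. Two-sided exact permutation tests on the difference of mean levels, 9 in blood, gave p from 0.0801 (Igll1) to 0.987 (Ebf1), where the smallest p that 6 against 5 libraries allow is 0.00216. Rag1 had an exact permutation p of 0.377 and, without V4, of 0.952. The test without V4 kept V1, the high nPM library, so it does not show that the other libraries were alike.

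T lineage genes were also highest in V4, the library highest in Rag1 and Dntt. Over 10 T lineage genes V4 summed to 54.9 CPM, and the other 4 controls and the 6 nPM libraries to 12.7 to 19.5 and 6.60 to 23.7 CPM. V1, next after V4 in Rag1 and Dntt, was also next in this sum (23.7 CPM), closely followed by V21 (23.2 CPM). The remaining libraries did not all keep the order of Rag1 or Dntt. V5, lowest in Rag1 and Dntt, summed to 20.9 CPM, and V3, next in Dntt after V4 and V1, had the lowest sum (6.60 CPM). Ptcra, the pre-T cell receptor chain made in immature thymocytes, had 11 counts in V4, 3 in V1 and 0 in each of the other 9 libraries. The 2 libraries with Ptcra counts were thus the 2 highest in Rag1 and in Dntt. V4 gave 33.4% of the Cd8b1 counts of the 11 libraries (exact 95% interval 28.1 to 39.1%), 26.1% of those of Il7r (22.7 to 29.6%) and 24.4% of those of Cd3g (20.8 to 28.3%). It gave 15.6% of Cd79a counts (13.2 to 18.2%), 14.7% of Cd79b (13 to 16.5%), 15.4% of Ms4a1 (13.7 to 17.2%), 19.2% of Pax5 (16.1 to 22.6%) and 18.1% of Igll1 (9.98 to 28.9%). The intervals of Pax5 and Igll1 overlap that of Cd3g. The ratio of Rag1 to Cd79a counts was 2.46 in V4, 0.871 in V1 and 0.0891 to 0.667 in the others. The part of T lineage RNA in the Rag1 and Dntt values was not tested.

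**Figure D3:**
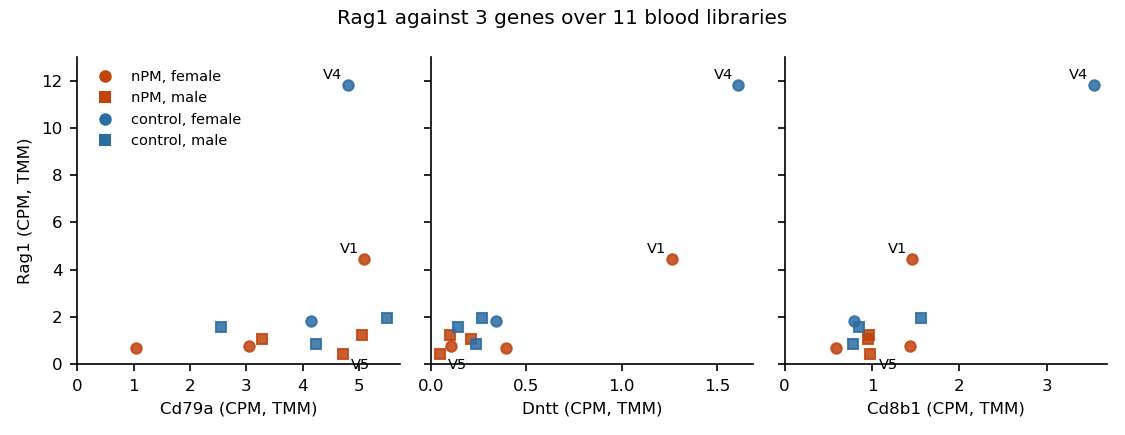
Rag1 level (vertical axis, TMM-scaled CPM) against Cd79a, Dntt and Cd8b1 (horizontal axes, same unit) in 11 blood libraries, orange for nPM, blue for control, circles for females and squares for males. V4 is highest in Rag1, Dntt and Cd8b1 while its Cd79a level (4.80 CPM) lies within the range of the other libraries (1.03 to 5.50 CPM).

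Whether the nPM difference depended on sex was asked with an exposure-by-sex term. None of the 7 members passed an adjusted p of 0.05 by edgeR, as 0% of the genes did, and limma voom and DESeq2 called 0 members too. At an unadjusted p under 0.05, 2 members passed, where 10.7% of all genes did. The Rag1 means were 1.96 CPM with nPM and 6.82 in controls among females, and 0.900 and 1.46 among males. The Ebf1 means were 1.11 and 1.91 CPM among females, and 2.83 and 1.94 among males. The term is the nPM log2 fold change in males minus that in females, adjusted for RIN, which the means are not. By edgeR it was 2.37 for Rag1 (SE 0.71, unadjusted p = 0.00348, adjusted p = 0.452) and 1.56 for Ebf1 (SE 0.63, unadjusted p = 0.0225, adjusted p = 0.452). In the Rag1 means the drop with nPM was larger in females, whose 2 control libraries are V4 and V17. With genes counted in any library, 0.361% of genes were called and so was Rag1 (2.38, adjusted p = 0.00774 by edgeR). Without V4 the Rag1 term was 1.12 (unadjusted p = 0.226), and only V17 was left as a control female. Without V5 the Ebf1 term was 0.91.

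The other B lineage genes were listed by role. No gene of the 4 lists passed an adjusted p of 0.05 in blood by edgeR (0% of all genes did). At an unadjusted p under 0.05 there were 0 transcription factors, 1 receptor or signalling gene, 1 end joining gene and 0 plasma cell genes. Of all 9977 genes tested, 3.11% were under that cutoff and 49.6% had an estimate below 0. Of 15 transcription factors 13 were below 0 (median log2 fold change -0.17), with the smallest unadjusted p for Myb (-0.49, SE 0.26) and Bach2 (-0.53, SE 0.35). The control V4 had the highest unscaled sum over these factors, 80.3 CPM, against 33.1 to 63.0 CPM in the other libraries compared. Median sums were 52.5 CPM with nPM and 50.2 CPM in controls. Estimates without V4 are not given for these lists. Of 18 receptor and signalling genes tested 12 were below 0 (median -0.14). They include Cxcr4 (-0.51, SE 0.23, unadjusted p = 0.0404), the chemokine receptor that holds precursors in the marrow, the adaptor Blnk (-0.48, SE 0.37), Il7r (-0.40, SE 0.35), Ms4a1 (-0.19, SE 0.29), Igkc (-0.16, SE 0.25), Ighm (-0.12, SE 0.26) and Vpreb3 (-0.03, SE 0.37). Vpreb2 and Cr2 were not tested. Of 7 genes that join the DNA ends after Rag cutting 3 were below 0 (median 0.05), and Nhej1 had the smallest p (-0.74, SE 0.26, unadjusted p = 0.00997), then Xrcc4 (0.65, SE 0.40). Of 5 plasma cell and class switch genes 2 were tested, Mzb1 (-0.69, SE 0.33) and Xbp1 (0.28, SE 0.23).

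Ighm, the heavy chain of the first antibody class, was at 193 to 885 counts in the 11 libraries, and Igkc was at 50 to 202. The B cell surface gene Ms4a1 (Cd20) was at 43 to 257, Il7r, the interleukin 7 receptor of lymphoid precursors, at 11 to 167, Vpreb3 at 2 to 28 and Blnk at 6 to 43. Among markers of other cells, 8 of 9 tested T lineage genes were below 0, where 49.6% of all genes were. The T lineage median was -0.39, led by Tcf7 (-0.61, SE 0.37) and Cd4 (-0.54, SE 0.34). The controls include V4, whose T lineage sum was 54.9 CPM, and estimates without V4 are not given here. Median T lineage sums were close, at 18.3 CPM with nPM and 19.5 CPM in controls. All 4 platelet genes were above 0 (median 0.23), with Ppbp at 0.68 (SE 0.33) and Pf4 at 0.26 (SE 0.24). The 6 neutrophil genes had a median of 0.00, with S100a9 at -0.21 (SE 0.22) and Mmp8 at 0.21 (SE 0.23). The stem and progenitor genes tested had Mpo at -0.37 (SE 0.31) and Prtn3 at 0.09 (SE 0.42), the globin genes Hbb-bt at -0.24 (SE 0.32) and Hbb-bh1 at 0.35 (SE 0.54), the neuronal genes Map2 at 0.65 (SE 0.93) and Tubb3 at -0.08 (SE 0.51), and the connective tissue genes Col1a1 at -0.26 (SE 0.36) and Col2a1 at 0.34 (SE 0.49). The liver genes Alb, Apoa1 and Afp were not tested. No marker gene passed at an unadjusted p under 0.05, where 3.11% of all genes did.

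The genes most like the members in pattern were found by the Pearson r, over the 11 blood libraries, with the mean log2 level of the 7 tested members, among 9970 other genes. They include Npm1 (0.94), Rcc1 (0.93), Cd3g (0.92), Tgfbr2 (0.91), Arid5b (0.90), Nono (0.90), Metap1 (0.90), Slc25a5 (0.90) and Atrx (0.90). Cd3g is a T cell gene, a chain of the T cell receptor complex. The members themselves did not share 1 pattern, with an r of 0.90 for Rag1 and Dntt but -0.21 for Dntt and Ebf1. The listed r were picked as the highest of 9970 and are given as a description. They were not recomputed without V4, which gave 24.4% of the Cd3g counts.

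In cortex the members formed a different order. Ebf1, which is known in neurons as well as in B cells, led with 0.567 ± 0.166 CPM per kb (SD, n = 12) and was above Cd79b (0.266 ± 0.0653) in 11 of 12 libraries. Rag1 followed at 0.172 ± 0.0226 and was present in every library at 22 to 42 counts, and Vpreb1 at 0.137 ± 0.0551, with 1 to 8 counts. Dntt was at 0 to 8 counts, Pax5 at 2 to 10, Rag2 at 0 to 7, Cd79a at 0 to 4 and Igll1 at 0 or 1. Of the antibody chains, Igkc was at 0 to 8 counts there, while Ighm had 104 to 226. Rag1 thus differed by less than 2-fold between the 12 cortex libraries, where in blood its counts ranged from 9 to 330. The part of B230118H07Rik, which overlaps Rag1 on the same strand, in these counts was not tested.

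Of the 5 members tested in cortex none passed an adjusted p of 0.05 by edgeR (0.0144% of 20857 genes did), and limma voom and DESeq2 called 0 of them. None passed at an unadjusted p under 0.05 or under 0.005 (5.67 and 0.614% of genes). The log2 fold changes were -0.24 for Rag1 (SE 0.17), 0.20 for Ebf1 (SE 0.22), -0.16 for Pax5 (SE 0.40), 0.25 for Vpreb1 (SE 0.43) and -0.04 for Cd79b (SE 0.29). Rag1 was at 27, 29, 22, 34, 35 and 41 counts with nPM and 32, 39, 36, 33, 42 and 37 in controls. On the scaled level 5 of 6 nPM libraries were below the lowest control and V23 was within the control range. Its two-sided exact permutation p was 0.0281, the smallest of 9 such tests in cortex and the only one under 0.05, while the edgeR p was 0.177. The smallest p that 6 against 6 libraries allow is 0.00216.

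Blood and cortex were compared over all genes with a count in any library of either tissue. With TMM all 9 members were called higher in blood by edgeR, where 18.9% of 33183 genes were called higher in blood and 34.9% higher in cortex. The study took both tissues from the same pups, but no label matches the libraries by pup, so this fit treats them as separate and its errors and p-values do not account for the pairing. The log2 differences ran from 2.74 for Ebf1 (SE 0.15) and 4.64 for Vpreb1 (SE 0.41) to 8.46 for Cd79b (SE 0.16) and 10.72 for Cd79a (SE 0.21). These sizes depend on scaling, since globin fills most of the blood libraries. The median of all genes was -1.12 with TMM and -3.84 by library totals alone. By totals, Cd79a was 6.63 higher in blood, Cd79b 4.27, Igll1 4.38, Pax5 3.84, Rag2 1.88, Dntt 1.73 and Rag1 0.98, all called, while Vpreb1 (0.50, adjusted p = 0.234) was not and Ebf1 was called lower in blood (-1.46, adjusted p = 1.11e-20). With the globin genes removed as well, Ebf1 was 0.43 higher in blood and all 9 members were called. Relative to the median of all genes, Ebf1 was 3.86 above with TMM and 2.38 above by totals, the smallest of the 9 members on both scales, and Cd79a was 11.83 and 10.47 above, the largest. In unscaled CPM the medians of Rag1 were close, at 1.19 in blood and 1.15 in cortex.

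**Figure D4:**
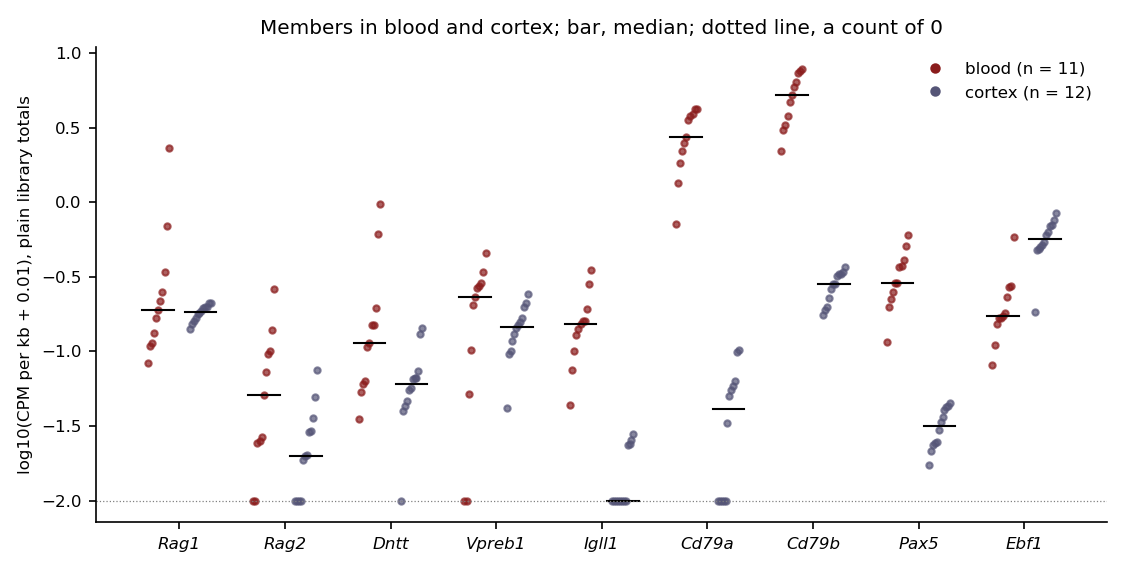
Each member in 11 blood (red) and 12 cortex (grey blue) libraries, as log10 of CPM per kb plus 0.01 with plain library totals (vertical axis), bars at the medians and a dotted line at a count of 0. Cd79a, Cd79b and Pax5 are separated between the tissues, Rag1 has close median levels in both (1.19 and 1.15 CPM) and spreads more in blood, and Ebf1 is higher in most cortex libraries than in blood on this scale.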

How the data were processed

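Per the study's methods and the sample labels, reads of RiboZero Gold libraries were trimmed with Trimmomatic, aligned to mm10 with HISAT2 and counted on Gencode M11 genes with featureCounts 1.5.0-p3. The table deposited by the authors holds raw counts for 48709 genes and 24 libraries. Its map gives positions and exonic lengths, and its mean RPKM column was not used. Strandedness is not given in the sources used here.

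Members were matched by symbol. The members and lists were chosen with earlier results of these data known. The named genes are the members, 8 fixed partners, the 2 genes of smallest p in each list, and the 10 most like the members. The results of 2 of these genes are not reported here. The main test was edgeR 4.0.16 (quasi-likelihood, two-sided, TMM, Benjamini-Hochberg) in R 4.3.3 on genes counted at least once (1 count) in each library, with exposure, sex and RIN. A second model added exposure by sex. The tissue fit had tissue with exposure, and sex, on genes with a count in any library. Adjusted p-values are edgeR's. Log2 levels for correlations and lanes were of CPM plus 0.5. Alternatives were limma voom 3.58.1, DESeq2 1.42.0, RLE, other filters, covariates, globin removed, all 12 blood libraries and each library left out. Added after seeing the data were leaving out V4 and V5 together, V4 with the any-library filter, and tissue scaling by totals. Scripts were tested on simulated counts. No 2 libraries were copies (lowest chi-square per gene 18.2 in blood and 7.23 in cortex, where sampling gives about 1).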

Additional observations from a re-analysis of the deposited data

Results flagged for a closer look

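Within groups of 5 or 6 libraries, 1 library lay far from the rest of its group in 7 of 36 groups of scaled member levels. The cutoff sets 1 in about 20 groups apart where values are normally distributed. That rate does not hold for low, skewed counts in groups that share libraries, so the 7 are given as a description. In control blood, V4 was far above the others in Rag1 (11.8 CPM, next 1.97) and in Dntt (1.61 CPM, next 0.341). In nPM blood, V1 was far above the others in Rag1 (4.44 CPM, next 1.22) and Dntt (1.26 CPM, next 0.394), and V5 in Ebf1 (4.85 CPM, next 1.94). In control cortex, V16 was highest in Rag2 (0.223 CPM, 7 counts, next 0.0639) and V14 in Dntt (0.291 CPM, 8 counts, next 0.136). V2, left out of the main blood comparisons, held Ebf1 at 15.7 CPM (unscaled), above the highest of the 5 other control blood libraries (2.57 CPM). It also held 8327 CPM of connective tissue, muscle and skin genes.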

How the results depend on the processing

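Of 697 recomputed values, 669 kept their direction and side of the threshold or, for counts, stayed within 1.5 times. With genes counted in any library, 1 member (Rag1) was called in blood (-1.31) and 1 for the interaction (2.38). Without V4 both calls were lost, and Ebf1 (0.13) in blood and Dntt (-0.052) and Pax5 (-0.35) in the interaction turned sign. With all 12 blood libraries Cd79a was 0.039, and the interaction was -0.32 for Igll1, -0.13 for Cd79b and -0.35 for Pax5. In the tissue comparison, 4 members had a count in every library and 4 were called under that filter, and totals without TMM gave -1.46 for Ebf1 and 0.50 for Vpreb1. Leaving out 1 library gave -0.44 to 0.13 for Ebf1 in blood, -0.19 to 0.10 for Cd79b and -0.39 to 0.050 for Pax5 in cortex, and -0.34 to 1.05 for the Pax5 interaction. It gave -1.68 to -0.57 for Rag1 and -1.17 to -0.42 for Dntt in blood, both nearest to 0 without V4, and without V4 and V5 together they were -0.39 and -0.20. Where V4 or V17 was left out, 1 control female remained and was assumed to vary like the other groups. The causes were not tested, beyond the change in genes and libraries that each alternative makes. No paired analysis was possible because the labels give every library a number of its own and do not match blood and cortex libraries of the same pup. Counts under 10 in most blood libraries limit Rag2, Dntt, Vpreb1 and Igll1.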
